A study of Rosa rugosa with 4 samples.

Results

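The transcripts described here code for plant receptor kinases with lectin, cysteine-rich or wall-binding outer domains, measured in leaves and petals of the rose *Rosa rugosa*. A contig, which is an assembled transcript piece, was taken where its first database hit named a strawberry, rose, plum, apple or pear sequence of the lectin S-receptor, lectin-domain, lectin-like, cysteine-rich, wall-associated, FERONIA or rust resistance kinase families and where it was at least 300 nt long. This gave 96 contigs of the 65535 in the table, out of 5518 contigs of that length with a hit in the rose family (Rosaceae). They comprised 66 G-type lectin kinases, 14 wall-associated kinases, 9 L-type lectin kinases, 4 cysteine-rich kinases and 3 FERONIA contigs, and no contig was named a lectin-like or a rust resistance kinase.

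The study collected petals and leaves from greenhouse plants that received no treatment, and sequenced total RNA after removal of ribosomal RNA. There were 2 petal libraries and 2 leaf libraries, named petal 1, petal 2, leaf 1 and leaf 2, and the comparison asked which transcripts differ between petals and leaves. The sources do not say whether libraries of 1 tissue, or libraries with the same number, came from the same plant or from different ones. The sources used here name no genotype, flower stage or plant age.

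Receptor kinases sit in the plasma membrane, with an outer domain that meets a ligand or the cell wall and an inner kinase that passes the signal on. G-type lectin kinases carry a domain related to mannose-binding lectins and belong with the S-locus kinases that block self pollen in *Brassica*, while L-type kinases carry a legume-type lectin. Wall-associated kinases contact pectin in the cell wall, cysteine-rich kinases carry repeated cysteine motifs, and FERONIA of *Arabidopsis* receives RALF peptides and monitors the wall during growth. Many of these families grew by tandem duplication in plants, and many members take part in defence.

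The values were FPKM, fragments scaled for contig length and for the number of mapped fragments of the library. FPKM steps between low contigs gave depths of 18.3, 23.4, 26.2 and 20 in petal 1, petal 2, leaf 1 and leaf 2, in units of 1e6 fragments. A single fragment on a contig of 400 nt was then worth 0.479, 0.383, 0.422 and 0.571 FPKM. The same fit put 221307, 689949, 230709 and 160760 fragments of these libraries in the table. That is a small part of each depth, and the shares below are shares of that part. Petal 2 stood apart, with 19.7% of its fragments in the table on contigs with a Rosaceae hit, against 79.2% in petal 1, 76.9% in leaf 1 and 77.0% in leaf 2. Of the fragments in the table, contigs with a grey mould hit held 27.8% in petal 2 and at most 0.0773% in any other library. Aphid hits held 6.53% in petal 1 and 3.47% in petal 2, against 0.283% in leaf 1 and 0.378% in leaf 2. Hits to the leaf spot fungus *Marssonina* held 0.0125% and 0.163% in the petal libraries, against 4.04% and 2.39% in the leaf libraries. The summed FPKM of Rosaceae contigs was nevertheless close, at 38163 and 41582 in petals and 33780 and 35815 in leaves. The marker contigs were few, went different ways within each list and did not bear out the tissue labels. Sums of 3 chlorophyll-binding contigs overlapped, and those of 2 anthocyanin pathway contigs, meant to mark petals, were lower in both petal libraries. The 3 chlorophyll-binding contigs summed to 113 and 44.1 FPKM in petals against 38.0 and 47.8 FPKM in leaves, and the 2 anthocyanin contigs summed to 0 and 2.64 FPKM in petals against 3.97 and 3.22 FPKM in leaves. Of the chlorophyll-binding contigs, TR146068 was higher in both petal libraries, TR115506 overlapped and TR113893 was seen in leaves only. Of the anthocyanin contigs, TR129707 was seen in petal 2 only and TR145085 in leaves only, on 3 and 8 fragments. The part of these differences between libraries in the results below was not tested.

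These kinases were weakly expressed and mostly seen in some libraries only, as other Rosaceae contigs of that length were. Their median level was 0.839 FPKM, beside 0.673 FPKM for the others, 14.6% were seen in all 4 libraries, beside 17.2%, and 9.38% were at 0 throughout, beside 11.5%. Of the 96 contigs, 9 were at 0 in all 4 libraries, 25 were above 0 in 1 library, 34 in 2, 14 in 3 and 14 in all 4. The median contig carried 7.5 fragments summed over the 4 libraries, 41 contigs carried at least 10, and the highest carried 117. Lengths ran from 301 to 1311 nt with a median of 360 nt, so most contigs were pieces of a kinase rather than a whole coding sequence. In 71 cases the hit was a strawberry gene, in 13 plum, in 8 apple and in 4 pear, and together the hits named 64 gene loci. Just inside the length limit, 9 contigs of 300 to 310 nt had a median level of 0.75 FPKM, against 1.06 FPKM for 17 contigs of the same families of at least 290 but under 300 nt that were left out.

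Of the 5 groups, wall-associated kinases and FERONIA had sums that did not overlap between tissues, and both were lower in petals. The 14 wall-associated contigs summed to 20.3 and 12.0 FPKM in petal 1 and petal 2, against 41.2 and 41.4 FPKM in leaf 1 and leaf 2. Both petal libraries lay below both leaf libraries, and the leaf mean of 41.3 ± 0.134 FPKM was 2.56 times the petal mean of 16.2 ± 5.85 FPKM (SD, n = 2 each). With petal 2 left out the leaf mean was still 2.04 times the value of petal 1. The lack of overlap rests on the contig TR138316, at 0.51 and 0 FPKM in petals against 11.5 and 21.7 FPKM in leaves. With that contig left out, the wall-associated sum of leaf 2 fell just below that of petal 1, so the tissues overlapped. With 2 libraries against 2 the smallest p that an exact two-sided permutation test allows is 0.333, so that test cannot pass 0.05, and the sums are given as a description. In these bulk samples, fewer cells of a type and less RNA per cell cannot be told apart.

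G-type lectin kinases made up most of the total and did not separate by tissue. They summed to 176 and 95.2 FPKM in petals, against 121 and 128 FPKM in leaves, so that the leaf values lay between the petal values. L-type lectin kinases summed to 8.24 and 18.3 FPKM in petals against 4.66 and 8.87 FPKM in leaves, and here the ranges overlapped. Cysteine-rich kinases summed to 3.23 and 1.35 FPKM in petals and to 0 and 12.0 FPKM in leaves, the last value resting mostly on a single contig. FERONIA contigs summed to 2.08 and 0.57 FPKM in petals against 5.69 and 2.15 FPKM in leaves, with leaf 2 just above petal 1. The FERONIA leaf mean was 2.96 times the petal mean, but 6.88 times without petal 1 and 1.62 times without leaf 1.

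**Figure D1:**
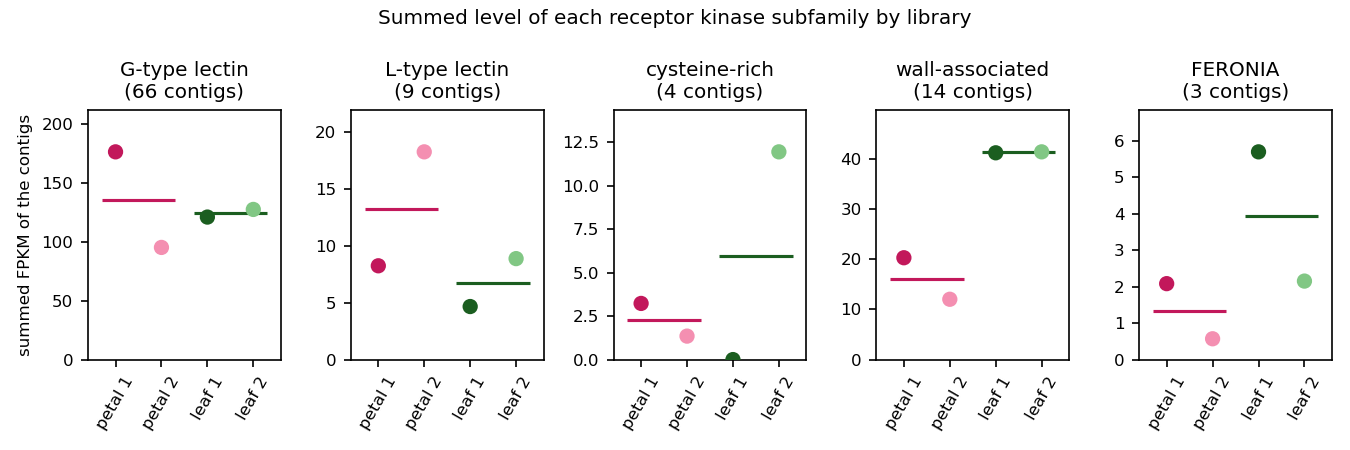
Summed FPKM of the contigs of each receptor kinase group in petal 1, petal 2, leaf 1 and leaf 2 (points, petals in pink and leaves in green, each panel with its own axis from 0) with the mean of each tissue as a line. The wall-associated sums are 20.3 and 12.0 FPKM in petals and 41.2 and 41.4 FPKM in leaves, while the G-type leaf sums of 121 and 128 FPKM lie between the petal sums of 176 and 95.2 FPKM.

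The contigs were then compared one by one. The test (limma on log2(FPKM + 1), petal minus leaf, Benjamini-Hochberg adjustment) covered all 5993 contigs of at least 300 nt with a mean of at least 1 FPKM, of which 44 were receptor kinases. It called 1 contig in all, 0.0167% of those tested, and 0 of the 44 kinases, whose smallest adjusted p was 0.614 with limma. The called contig was a mitochondrial glycine cleavage H protein, a photorespiration enzyme subunit, at 1.94 and 2.74 FPKM in petals against 829 and 851 FPKM in leaves. At an unadjusted p under 0.05 there were 3 kinases, beside 7.58% of all contigs tested, and limma-voom on estimated fragments also called 0 kinases. Only 1852 of the contigs tested had a Rosaceae hit. In a limma fit of those alone, 198 had an unadjusted p under 0.05. The median log2 difference of the 44 kinases was 0.0026, with 22 above 0 and 22 below, beside -0.05 over the Rosaceae contigs tested and 1.05 over all contigs tested. The differences on this scale understate the change of contigs with low FPKM.

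Counted over all 96 kinases, 8 had both petal values above both leaf values and 10 had both below. Over all Rosaceae contigs of that length the shares were 14.2% higher and 12.8% lower, so separation by tissue was not more common among these kinases. By group, the 14 wall-associated contigs had 0 higher and 4 lower, the 66 G-type contigs 6 higher and 5 lower, and FERONIA 0 higher and 1 lower. L-type and cysteine-rich kinases had 1 higher each and 0 lower. For scale, 15 of 110 contigs of another receptor class, the leucine-rich repeat kinases, were higher and 17 were lower in both petal libraries.

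Among wall-associated kinases, the contig TR138316 had the largest difference. Its hit was the strawberry wall-associated receptor kinase-like 16, and it had 0.51 and 0 FPKM in petals against 11.5 and 21.7 FPKM in leaves. It was near absent from petals and among the highest contigs of the family in leaves. That was 1 fragment in petals and 60 in leaves, a leaf to petal ratio of 69.3 with an exact 95% interval from 12.0 to 2781 that covers counting error only. On the log2 scale the difference was -3.77 (SE 0.79), with an adjusted p of 0.614 in limma, which is not a call. The 2 other contigs of the same strawberry locus had 9 and 10 fragments in leaf 1, none in leaf 2, and 0 and 1 fragments in petals. Summed over the 3 contigs the locus had 0.76 and 0 FPKM in petals against 15.9 and 21.7 FPKM in leaves, again with no overlap (adjusted p = 0.239 in limma over 1617 loci).

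A further wall-associated contig, TR138426 with a hit to wall-associated receptor kinase 3-like, was listed at 0 in both petal libraries and had 1.45 and 5.27 FPKM in leaves. Its 41 leaf fragments make it at least 13.5-fold higher in leaves when 3 fragments over both petal libraries are taken as the floor (log2 difference -1.97, SE 0.84, adjusted p = 0.614 in limma). The contig for wall-associated receptor kinase 1, whose *Arabidopsis* namesake binds pectin and its fragments, had 0.25 and 0 FPKM in petals against 1.35 and 1.06 FPKM in leaves. At 926 nt this contig, TR114682, was one of the longest, and it carried 3 fragments in petals and 35 in leaves, a leaf to petal ratio of 11.0 (counting interval 3.46 to 55.7). The contig for wall-associated kinase-like 10, TR11860 of 956 nt, had 0.16 and 0 FPKM in petals against 1.05 and 0.85 FPKM in leaves, or 2 and 29 fragments. Both of these lay under the mean of 1 FPKM needed for the test. All 4 contigs hit different loci and all 4 were at 0 in petal 2. That library had the small Rosaceae share, yet its Rosaceae fragments in the table numbered 135956, beside 123828 in leaf 2. Its part in these zeros was not tested. In petal 1 the 4 contigs had 0 to 3 fragments each.

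Other wall-associated kinases did not follow this order. The highest of the group, the kinase-like 14 contig TR141473, had 14.1 and 0 FPKM in petals against 11.1 and 10.6 FPKM in leaves, so that petal 1 was the highest and petal 2 the lowest library. A second kinase-like 14 contig from another locus, TR140279, was among the few seen everywhere, with 3.03 and 1.52 FPKM in petals against 1.71 and 1.97 FPKM in leaves (49 and 43 fragments). Its petal and leaf values overlapped, with a log2 difference of 0.17 (SE 0.77). The kinase-like 9 contig TR120208 had 1.21 and 1.97 FPKM in petals against 4.83 and 0 FPKM in leaves, on 7 fragments in all. Contigs for kinase 3-like and kinase 2-like were above 0 in petal 2 and leaf 1 only, with 4.66 and 1.36 FPKM for TR145379 and 3.72 and 2.19 FPKM for TR122848.

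**Figure D2:**
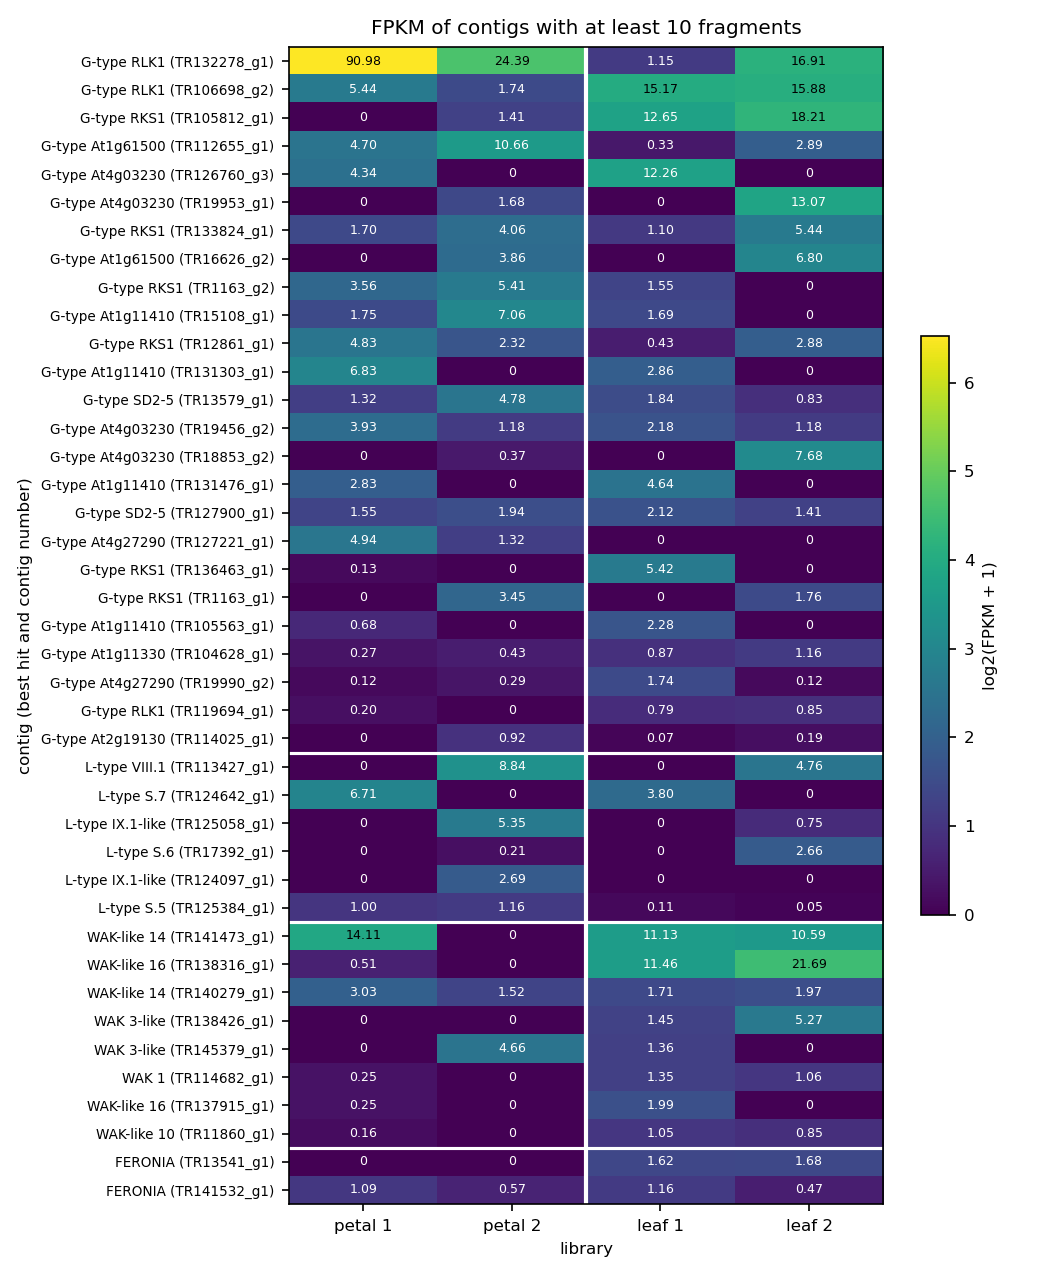
FPKM of the 41 receptor kinase contigs with at least 10 fragments (rows, by group and mean) in petal 1, petal 2, leaf 1 and leaf 2 (columns), coloured by log2(FPKM + 1) with the FPKM printed in each cell. The G-type contig TR132278 is the brightest at 91.0 and 24.4 FPKM in petals against 1.15 and 16.9 FPKM in leaves, and many rows are at 0 in both libraries of one number.

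The most abundant kinase of all was a G-type lectin contig, TR132278, with a hit to the plum kinase RLK1. It had 91.0 and 24.4 FPKM in petals against 1.15 and 16.9 FPKM in leaves. Both petal libraries lay above both leaf libraries, but the libraries of each tissue were far apart (57.7 ± 47.1 FPKM in petals and 9.03 ± 11.1 FPKM in leaves, SD, n = 2 each). Petals held 105 fragments and leaves 12, a petal to leaf ratio of 6.90 with a counting interval from 3.79 to 13.8. The log2 difference was 2.96 (SE 1.24) with an adjusted p of 0.614 in limma. Its size depended on the library: it was 1.43 without leaf 1, 4.49 without leaf 2, 2.03 without petal 1 and 3.89 without petal 2. This contig of 325 nt was the 1 kinase whose mean and SD both reached 10 FPKM, the filter of the study's methods. It also carried the G-type total: with it left out, the log2 ratio of the petal over the leaf sum was -0.56, against 0.13 with it.

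Another RLK1 type went the other way. The contig TR106698_g2, with a strawberry RLK1 hit (g numbers the genes that the assembler split from 1 read cluster), had 5.44 and 1.74 FPKM in petals against 15.2 and 15.9 FPKM in leaves. The 2 leaf values were close together and both were above both petal values (log2 difference -1.98, SE 0.78, adjusted p = 0.614 in limma). All 4 contigs of that strawberry locus summed to 8.94 and 4.05 FPKM in petals against 17.1 and 15.9 FPKM in leaves, a leaf mean 2.54 times the petal mean. That direction rests on TR106698_g2, since the 3 other contigs were not higher in leaves: TR106698_g1 had 2.72 and 0 FPKM in petals against 1.96 and 0 FPKM in leaves, and TR1554 and TR135969 were seen in petals only, on 2 fragments each. TR132278 and TR106698_g2 therefore went in opposite directions. Their best hits were a plum and a strawberry locus, which does not show whether they are different rose genes. The other contig of the plum locus, TR107213, carried 2 fragments. A contig of another strawberry RLK1 locus, TR119694, had 0.20 and 0 FPKM in petals against 0.79 and 0.85 FPKM in leaves, on 10 fragments.

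Contigs named RKS1 were also split. RKS1 of *Arabidopsis* contributes to resistance against the bacterium *Xanthomonas campestris*. The contig TR105812 had 0 and 1.41 FPKM in petals against 12.7 and 18.2 FPKM in leaves, or 2 and 31 fragments, with both leaf libraries far above both petal libraries. Its log2 difference was -3.38 (SE 0.83, adjusted p = 0.614 in limma), and its leaf to petal ratio of 19.2 had a counting interval from 4.88 to 166. A contig of a different strawberry locus, TR1163_g2, had 3.56 and 5.41 FPKM in petals against 1.55 and 0 FPKM in leaves (23 and 4 fragments, log2 difference 1.76, SE 0.86). The 4 contigs of that second locus summed to 13.2 and 13.8 FPKM in petals against 3.78 and 7.20 FPKM in leaves. Here both petal libraries were above both leaf libraries, with a log2 difference of 1.21 and an adjusted p of 0.480 in limma over loci. The locus of TR105812 summed to 4.83 and 3.73 FPKM in petals against 13.1 and 21.1 FPKM in leaves (log2 difference -1.75, adjusted p = 0.388 in limma). Its contig TR12861, at 4.83 and 2.32 FPKM in petals against 0.43 and 2.88 FPKM in leaves, did not share that order. The RKS1 contig with the most fragments, TR136463 of another strawberry locus, had 0.13 and 0 FPKM in petals against 5.42 and 0 FPKM in leaves. Of its 56 fragments, 55 were in leaf 1, so it followed a single library rather than a tissue.

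Further G-type contigs with the petal values on top had hits named for *Arabidopsis* loci. The At1g61500-type contig TR112655 had 4.70 and 10.7 FPKM in petals against 0.33 and 2.89 FPKM in leaves. Its 85 petal and 15 leaf fragments make it one of the better measured members, with a petal to leaf ratio of 5.63 (counting interval 3.23 to 10.5) and a log2 difference of 1.84 (SE 0.92, adjusted p = 0.614 in limma). The At4g27290-type contig TR127221 had 4.94 and 1.32 FPKM in petals and was listed at 0 in both leaf libraries, which makes it at least 3.43-fold higher in petals (floor of 3 fragments summed over leaf 1 and leaf 2). Another contig of that strawberry locus, TR19990_g2, was highest in leaf 1, with 0.12 and 0.29 FPKM in petals against 1.74 and 0.12 FPKM in leaves. The At1g11410-type contig TR15108 had 1.75 and 7.06 FPKM in petals against 1.69 and 0 FPKM in leaves, where petal 1 and leaf 1 were almost equal.

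Some G-type kinases had close values in all 4 libraries. The CES101-type contig TR146361 had 2.01 and 2.45 FPKM in petals against 1.97 and 2.65 FPKM in leaves. The SD2-5-type contig TR127900, at 705 nt and 31 petal and 33 leaf fragments, had 1.55 and 1.94 FPKM in petals against 2.12 and 1.41 FPKM in leaves, with a log2 difference of -0.002 (SE 0.75). Contigs of the SD1-29 type, which in *Arabidopsis* senses bacterial hydroxy fatty acids, were all low. Of these, TR131001 had 2.27 and 0 FPKM in petals against 1.13 and 0 FPKM in leaves, and TR104614 had 0.88 and 0.70 FPKM in petals against 1.15 and 0 FPKM in leaves, on 3 and 7 fragments.

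L-type lectin kinases were each seen in few libraries, with one exception. The contig TR125384, with a hit to the plum kinase S.5, was the longest of all at 1311 nt and had 1.0 and 1.16 FPKM in petals against 0.11 and 0.05 FPKM in leaves. It carried 47 fragments in petals and 4 in leaves, a petal to leaf ratio of 12.7 with a counting interval from 4.65 to 48.6. The petal libraries agreed closely (1.08 ± 0.113 FPKM, SD, n = 2) and lay well above the leaf libraries (0.08 ± 0.042 FPKM), but the mean of 0.58 FPKM kept the contig out of the test. It was singled out here after its values were seen.

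Several other L-type kinases were seen in libraries of 1 number only. VIII.1 (TR113427) had 0 and 8.84 FPKM in petals against 0 and 4.76 FPKM in leaves, so that both number 2 libraries held it and both number 1 libraries did not. S.7 (TR124642) was the mirror image, with 6.71 and 0 FPKM in petals against 3.80 and 0 FPKM in leaves. S.6 (TR17392) had 0 and 0.21 FPKM in petals against 0 and 2.66 FPKM in leaves. For the IX.1-like type, whose *Arabidopsis* relatives act in defence against *Phytophthora*, TR125058 had 0 and 5.35 FPKM in petals against 0 and 0.75 FPKM in leaves. A second IX.1-like contig, TR124097 of 699 nt, had all of its 26 fragments in petal 2, at 2.69 FPKM.

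Cysteine-rich kinases had 4 contigs, 18 fragments in all and no contig of 10 fragments. Kinase 8 (TR146330) had 0 and 1.26 FPKM in petals against 0 and 10.4 FPKM in leaves, on 6 fragments in the number 2 libraries only. Kinase 29 (TR16204) had 2.34 and 0 FPKM in petals against 0 and 1.56 FPKM in leaves. Both contigs of kinase 10 were listed at 0 in leaves, with 0.66 and 0.09 FPKM in petals for TR1336_g1 and 0.23 and 0 FPKM for TR1336_g2. The first of these had 7 petal fragments, at least 2.45-fold higher in petals against 3 fragments summed over leaf 1 and leaf 2.

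The FERONIA contigs had 3 loci of strawberry and plum as their best hits, which need not be 3 rose genes. They did not share 1 pattern. TR13541, with a plum hit, was listed at 0 in both petal libraries and had 1.62 and 1.68 FPKM in leaves. Its 16 leaf fragments make it at least 5.41-fold higher in leaves. TR141532, the longest at 735 nt, had 1.09 and 0.57 FPKM in petals against 1.16 and 0.47 FPKM in leaves, where the number 1 libraries were the higher in each tissue. TR105560 had 0.99 and 0 FPKM in petals against 2.91 and 0 FPKM in leaves, on 4 fragments. None of the FERONIA contigs reached the mean needed for the test.

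The split by library number, seen above in single contigs, was more common among G-type contigs than among other Rosaceae contigs, but not among the rest of the family. Of the 34 kinase contigs above 0 in exactly 2 libraries, 23 (67.6%) were in the petal and the leaf library of the same number. Only 5 (14.7%) were in both libraries of a tissue, and 6 (17.6%) were in libraries of different number and tissue. Same-number contigs numbered 13 for petal 1 with leaf 1 and 10 for petal 2 with leaf 2. With at least 10 fragments the count was 14 of 18 (77.8%), beside 3 of the same tissue and 1 of the rest. Among other Rosaceae contigs above 0 in exactly 2 libraries the same-number share was 46.7% of 1631, and 56.9% of 573 with at least 10 fragments. It was 37.5% of 40 leucine-rich repeat kinase contigs and 80.0% of the 20 G-type contigs, but 1 of 4 among wall-associated contigs. These shares are descriptions with no test, since contigs of 1 locus can share reads and are not independent, and the sources do not say what a number stands for.

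**Figure D3:**
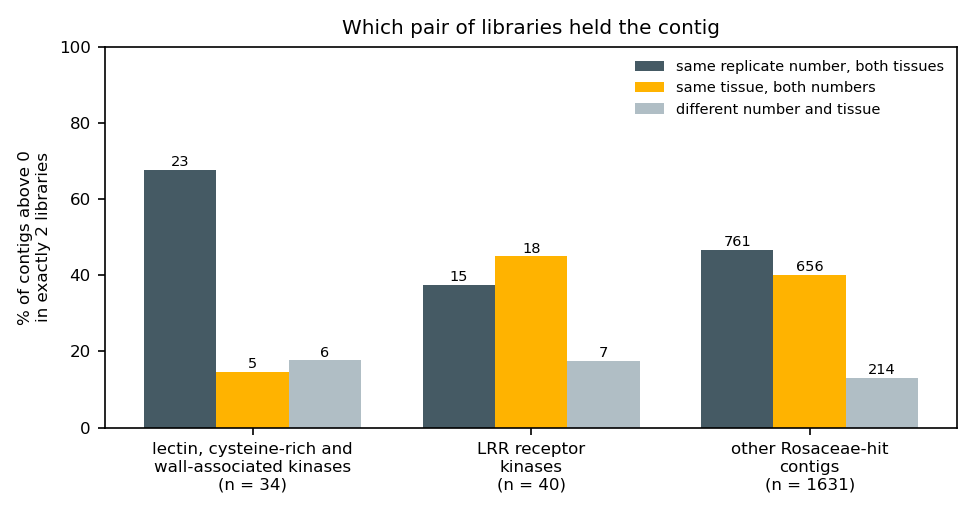
Share of contigs above 0 in exactly 2 libraries by which pair of libraries held them (percent on the vertical axis, number of contigs above each bar), for the receptor kinases described here, leucine-rich repeat receptor kinases and all other Rosaceae contigs of at least 300 nt. Same-number pairs are 23 of 34 in the first set, 15 of 40 in the second and 761 of 1631 in the third.

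One strawberry locus showed this split within itself. The G-type kinase named for *Arabidopsis* At4g03230 was the best hit of 10 contigs in 6 read clusters, and no Rosaceae locus in the table had more. Of these contigs 4 were seen in the number 1 libraries only, 4 in the number 2 libraries only, 1 in all 4 libraries and 1 in none. The contig TR126760_g3 had 4.34 and 0 FPKM in petals against 12.3 and 0 FPKM in leaves. TR19953, of 693 nt and 114 fragments, had 0 and 1.68 FPKM in petals against 0 and 13.1 FPKM in leaves. Each was higher in the leaf than in the petal library of its own number, and each was at 0 in the other pair.

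**Figure D4:**
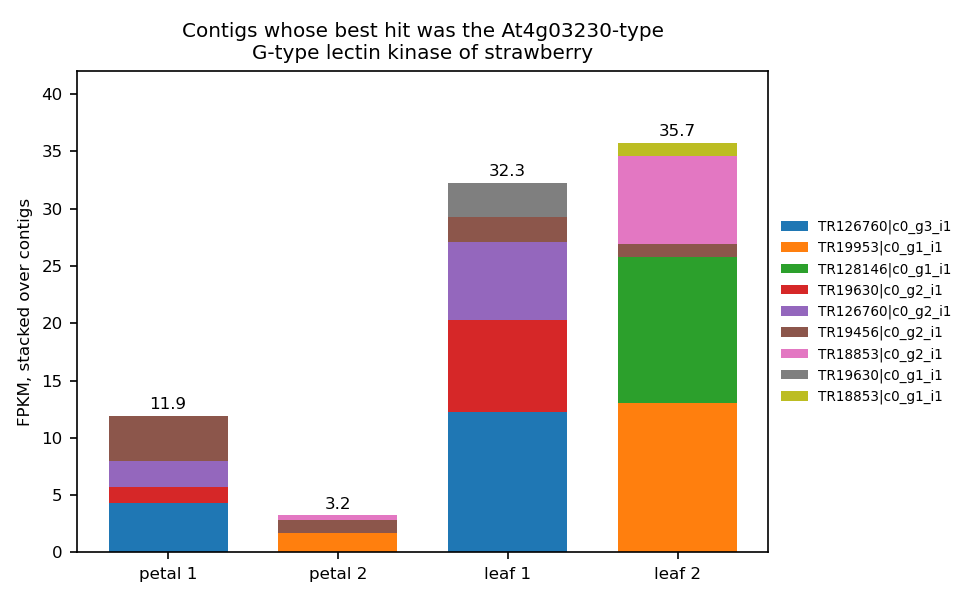
FPKM of the contigs whose best hit was the At4g03230-type strawberry kinase, stacked by contig in petal 1, petal 2, leaf 1 and leaf 2, with the sum above each bar. The sums are 11.9 and 3.23 FPKM in petals and 32.3 and 35.7 FPKM in leaves, built from different contigs in the number 1 and the number 2 libraries apart from 1 contig seen in all 4.

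Summed over its contigs, the At4g03230-type locus had 11.9 and 3.23 FPKM in petals against 32.3 and 35.7 FPKM in leaves. The leaf libraries were close to each other and both above both petal libraries, with a leaf mean of 34.0 ± 2.45 FPKM that was 4.50 times the petal mean of 7.56 ± 6.12 FPKM (SD, n = 2 each). In a fit over 1617 loci, added after the data had been seen, its log2 difference was -2.24 (SE 0.72) with an adjusted p of 0.363 in limma. That fit tested 33 kinase loci and called 0, beside 0.247% of all loci, and 3 of the 33 had an unadjusted p under 0.05, beside 11.8%. Of all 64 kinase loci, 7 were higher and 10 lower in both petal libraries, beside 16.1% and 14.8% of all 3694 loci. Without this locus, 18 of the remaining 29 contigs seen in 2 libraries (62.1%) were same-number pairs. Pieces of 1 transcript, gene copies and alleles cannot be told apart here, and the abundance estimate can divide reads among near-identical contigs, so levels of single contigs of a locus are uncertain.

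Partners of these receptors were looked up by name among Rosaceae contigs of the same length in the table, which holds only part of the assembly. No contig was named a RALF peptide, another kinase of the FERONIA class, a BAK1-type co-receptor or a cytoplasmic kinase of the PBS1 type, and 1 contig of a ROP-type GTPase was too low for the test. Respiratory burst oxidases, which make reactive oxygen after receptor activation, had 3 contigs with 2 tested, both of type E, and 0 called. These 2 were seen in libraries of 1 number only, with 0 and 2.61 FPKM in petals against 0 and 5.45 FPKM in leaves for TR118497, and 2.77 and 0 FPKM in petals against 2.79 and 0 FPKM in leaves for TR125114. The third, TR108448, was not, with 1.70 and 0.34 FPKM in petals against 0 and 0.99 FPKM in leaves. Of 11 calcium signalling contigs 6 were tested and 0 were called. The most abundant, calmodulin-7 (TR13395), had 31.4 and 96.1 FPKM in petals against 55.6 and 76.1 FPKM in leaves, with overlapping tissues. A calmodulin-binding transcription activator 4 contig (TR120919_g2) had 0 and 21.9 FPKM in petals against 0 and 23.3 FPKM in leaves. Both calcium contigs that separated the tissues were calmodulin-like and lower in petals: TR122487 was at 0 in both petal libraries against 4.43 and 8.92 FPKM in leaves (log2 difference -2.88, SE 0.78, adjusted p = 0.614 in limma), and TR144483 had 0 and 0.21 FPKM in petals against 0.86 and 1.44 FPKM in leaves. Of 3 MAP kinase cascade contigs 1 was tested, the kinase kinase 3 contig TR137092, which had 4.15 and 1.13 FPKM in petals against 1.39 and 0 FPKM in leaves. One MAP kinase cascade contig under the mean needed for the test, TR101307, had 1.32 and 0.61 FPKM in petals and 0 FPKM in both leaf libraries. Pectin enzymes and their inhibitors, which shape the polymer that wall-associated kinases bind, had 10 contigs with 2 tested and 0 called, and 1 was higher and 2 were lower in both petal libraries. Over all Rosaceae contigs of that length 14.2% were higher and 12.8% were lower. Counts this small, here and among calcium contigs, do not set the lists apart from those shares. The 2 tested were polygalacturonases, TR105252 with 3.25 and 0 FPKM in petals against 3.21 and 0 FPKM in leaves, and TR142817 with 3.07 and 0.62 FPKM in petals against 0.73 and 0.99 FPKM in leaves.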

How the data were processed

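Ribosomal RNA was removed from total RNA of 2 petal and 2 leaf samples before Illumina sequencing. The authors pooled the reads of all 4 libraries, assembled contigs of at least 150 nt with Trinity, annotated them by their hits in NCBI databases and obtained abundances with RSEM from bowtie alignments. The deposited values are FPKM per contig with 2 decimals, in a sheet that ends at 65535 contigs, so contigs past that row were not analysed here. Strand use in the alignment is not given in the sources used here. No genome build was involved, and contigs have no coordinates.

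Members and lists were chosen by words in the first hit, with earlier results of these data known. Depth was fitted from the FPKM steps of contigs of 300 to 600 nt, and 98.1% to 98.4% of low values came within 0.1 of a whole fragment. Depth is therefore an estimate, and intervals (exact, 95%) and floors (3 fragments) cover counting error only. FPKM were tested as log2(FPKM + 1) with limma 3.58.1 in R 4.3.3 (trended variance prior, tissue only, two-sided, Benjamini-Hochberg, threshold 0.05) on contigs of at least 300 nt with a mean of at least 1 FPKM. P-values measure the spread between these libraries, which may be technical. The study compared the tissues with edgeR, which needs counts, and it was not used here. Summaries used Python 3.11.15 and SciPy 1.17.1, and the fit was tested on simulated data. Named contigs were those called, the 5 highest by mean in each group, the 5 highest and 5 lowest differences among tested contigs with no overlap of tissues, every FERONIA contig, and the 2 highest tested contigs of each partner list. Any other contig was named after its values were seen. Alternatives were pseudocounts of 0.1 and 10, other filters, scalings and variance priors, limma-voom on estimated fragments, a block on the library number, sums per locus and leaving out each library. All 4 value columns were mapped to samples.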

Additional observations from a re-analysis of the deposited data

Results flagged for a closer look

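Contigs of the same families shorter than 300 nt were left out of every comparison above, and they were not empty. Of these 163 contigs, 17 carried more than 3 fragments, the limit that a count of 0 allows, by a fragment value extrapolated from longer contigs. Over all 163, FPKM summed to 185 and 84.3 in petals and to 546 and 389 in leaves. A single fragment counts for many FPKM on a contig near the fragment length, so these sums cannot be set beside those of the longer contigs.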

How the results depend on the processing

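The count of 0 kinases called held under 11 alternatives (other pseudocounts, filters, scalings, variance priors and limma-voom). A block on the library number, which pairs petal 1 with leaf 1 and petal 2 with leaf 2, called 1 kinase higher in petals (TR132278, adjusted p = 0.00199 in limma) and 2 lower (TR138316, 0.00427, and TR105812, 0.0134), beside 3.3% of all contigs called. Same-numbered libraries deviated together, with a correlation of 0.363 over the kinases, 0.372 over all Rosaceae contigs tested and 0.205 over all contigs tested, but with 2 pairs and no word in the sources the number is not shown to be a pairing. Fits with 1 library left out have 1 residual degree of freedom, and contigs at 0 in both libraries of the whole tissue then have no residual spread. Some kinases passed the threshold with a petal library left out, as did many other contigs, so only sizes are given. With petal 1 left out the log2 difference was 2.36 for TR104382, 1.21 for TR127221, -2.59 for TR106698_g2 and -3.57 for TR141473. With petal 2 left out it was 2.57 for TR127221.

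The median log2 difference of the kinases, 0.0026, became 2.96 with the study's filter (1 kinase left), -0.71 with quantile normalization and 0.25 with limma-voom, and it ran from -0.38 to 0.14 when 1 library was left out. Scaling to an equal Rosaceae sum moved the median of all contigs from 1.05 to 0.95 and quantile normalization moved it to 0.35. Leaving out 1 library gave 11 to 27 kinases higher (8 with all libraries) and 11 to 34 lower (10 with all libraries) in petals. Such counts cannot fall when a library is left out, since fewer values then have to be in order. The matching shares over all Rosaceae contigs were not computed, so nothing is read from the rise. The G-type log2 ratio of sums was -0.56 without TR132278. Of 17 named and tested contigs, some changed sign. TR140279 had a log2 difference of -0.51 with quantile normalization. TR120208 had -0.072 with a pseudocount of 10, -0.034 with an equal sum and -0.56 with quantile normalization. TR124642 had -0.11 with limma-voom. With 1 library left out the log2 difference ran from -2.52 to 1.21 for TR126760_g3, from -3.57 to 0.35 for TR141473, from -0.17 to 0.51 for TR140279, from -1.19 to 1.36 for TR120208, from -1.26 to 2.04 for TR113427, from -1.13 to 1.82 for TR124642, from -0.40 to 2.26 for TR125058 and from -2.92 to 0.59 for TR146330. The cause of these changes was not tested. Of the other results for named contigs under an alternative, 240 were counted as keeping direction and side of the threshold and 7 came past it. The 240 include contigs under the mean needed for the test, which have no side of the threshold to keep. They also include fits on the same log2(FPKM + 1) values of all 4 libraries, where the difference cannot change sign. Much of that count was therefore fixed in advance and is no measure of stability. Low depth limits all of this: only 41 of the 96 contigs carried at least 10 fragments.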
